A study of Mus musculus with 6 samples.

Results

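Mitochondrial ribosomal proteins, the Mrpl proteins of the large subunit and the Mrps proteins of the small subunit, were examined as 1 group of genes in mouse jejunum. Every probe set that the platform annotation assigns to exactly 1 gene whose symbol starts with Mrpl or Mrps and a digit was taken, and each gene was represented by its brightest probe set, the one with the highest mean over the 6 arrays. This gave 76 genes, 47 Mrpl and 29 Mrps, out of 18193 genes that the array names through such probe sets. The 76 genes had 156 probe sets, and all 76 brightest probe sets passed the filter on dim signals (a log2 value above 4 on at least 3 arrays).

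Mitochondrial ribosomes are built inside mitochondria from ribosomal RNAs of the mitochondrial genome and from proteins that are encoded in the nucleus, made in the cytosol and imported. The small subunit holds the messenger RNA and decodes it, and the large subunit joins the amino acids and releases the chain at the inner membrane. These ribosomes translate the messengers of the mitochondrial genome, whose products are core subunits of the respiratory chain and of ATP synthase. In the jejunum, mitochondria supply the absorptive cells with ATP for nutrient uptake and for the packing of dietary fat.

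The series compared 3 wild type mice (mice 1, 3 and 4) with 3 mice lacking both Ifrd1, also called TIS7, and Ifrd2, also called SKMc15 (mice 1, 2 and 3). Per the labels, all 6 were male C57BL/6 mice aged 7 to 10 weeks and housed singly. Their high-fat diet had 42% of energy from milk fat, and cholesterol at 0.2%. The tissue came from animals fed for 3 weeks, out of a stated range of 3 up to 8 weeks, and each mouse gave 1 Affymetrix Mouse 430 2.0 array of whole jejunal RNA. The labels do not say whether the deletions act in all tissues, and in a whole tissue fewer cells of a type and less RNA per cell cannot be told apart.

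The targeted genes followed the labels: the log2 level of Ifrd1 was 9.92 ± 0.08 in wild type and 5.30 ± 0.83 in double knockout mice (SD, n = 3 each), and that of Ifrd2 was 8.38 ± 0.21 and 2.66 ± 0.08. All 15 tested markers of enterocytes, the absorptive cells, lay at mean levels above 10 in both groups, from 10.1 for Slc15a1 in double knockout mice upward. None of them passed the test in either direction, although the mean was lower in double knockout mice for 13 of the 15. In 8 of the 15 all 3 double knockout mice lay below all 3 wild type mice, beside 14.2% of all tested genes. In 0 of them they lay above, beside 22.5%. The mean 3′ minus 5′ signal of the Gapdh and beta-actin control probe sets, which grows as RNA or labelled copies get shorter, was 0.35, 0.49 and 0.36 in wild type mice 1, 3 and 4 and 0.60, 0.41 and 0.61 in double knockout mice 1, 2 and 3. Its part in the results was not tested other than by a fit with it as a covariate.

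The mitochondrial ribosomal protein genes stood a little higher in the double knockout mice in both subunits. The difference in log2 level (double knockout minus wild type, from limma) was positive for 70 of 76 genes, against 58.1% of the 9674 tested genes, and its median was 0.21, a 1.15-fold level, against 0.05 over the 9674. After Benjamini-Hochberg adjustment over all 18013 tested probe sets, 8 of the 76 genes (10.5%) passed a threshold of 0.05 as higher, beside 3.18% of all tested genes, and 0 passed as lower, beside 1.6%. At an unadjusted p of at most 0.05, 30 were higher, beside 17.6% of all tested genes, and 0 lower, beside 10.4%. In 40 of the 76 genes all 3 double knockout mice lay above all 3 wild type mice, beside 22.5% of all tested genes, and in 1, Mrps36, all 3 lay below, beside 14.2%.

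The changes were small. A log2 difference of at least 0.25 was measured for 31 genes, of at least 0.50 for 8 and of at least 0.75 for 2, Mrps27 and Mrps18b. For 46 genes the 95% interval of the difference included 0, and for 46 its upper end stayed below 0.50. Most of the 8 calls were lost with any mouse left out: as each was left out in turn, 0 genes passed in 4 of the fits, 1 (Mrps18b) when wild type mouse 3 was missing and 1 (Mrps27) when double knockout mouse 1 was missing. Calls fell over the whole array too: these fits called 11 to 196 of 18013 probe sets as higher, against 458 with all 6 mice. The number of the 76 genes that passed thus does not show dependence on a single mouse. Of the 76 genes 0 passed in the fit with the 3′ minus 5′ difference as a covariate, in which 5 of 18013 probe sets passed as higher. The differences in that fit were of similar size, with 72 of 76 positive and medians of 0.21 for the large and 0.26 for the small subunit.

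**Figure D1:**
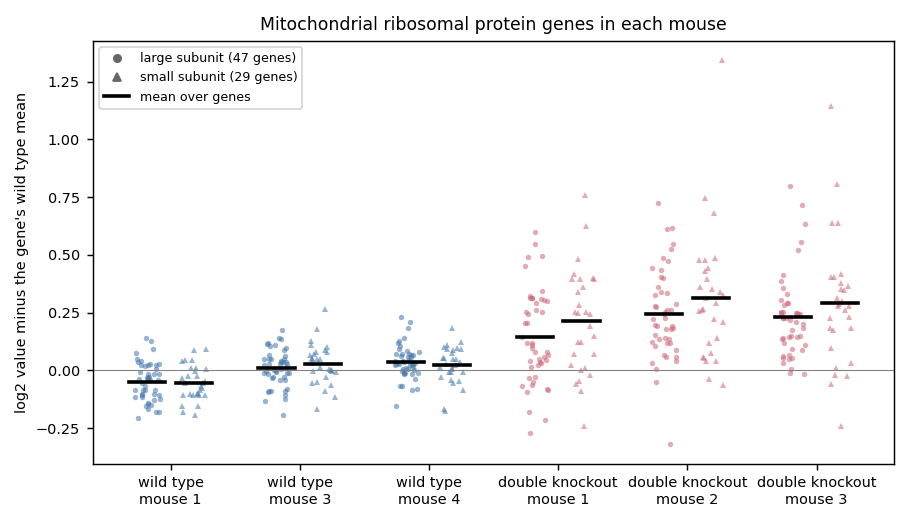
Log2 level of each of the 76 genes in each mouse, minus the gene's mean in wild type mice (circles, 47 large subunit genes; triangles, 29 small subunit genes; bars, mean over genes). The bars lie between -0.05 and 0.04 in the wild type mice and between 0.14 and 0.31 in the double knockout mice.

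By mouse, the mean deviation of the 76 genes from their wild type means was -0.05, 0.02 and 0.03 in wild type mice 1, 3 and 4. It was 0.17, 0.27 and 0.25 in double knockout mice 1, 2 and 3, so the groups did not overlap in this mean. Wild type mouse 1 held the lowest of the 6 values in 39 of 76 genes and double knockout mouse 2 the highest in 34. Double knockout mouse 2 had the largest mean deviation of the 3, and its 3′ minus 5′ signal of 0.41 lay inside the wild type range. That signal was 0.60 and 0.61 in double knockout mice 1 and 3, above all 3 wild type mice. The part of this signal in the deviations by mouse was not tested.

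Large subunit genes by symbol had a median difference of 0.16 and small subunit genes of 0.28. The share of genes that passed was nearly equal, 5 of 47 (10.6%) and 3 of 29 (10.3%), and the share with separate groups was 22 of 47 (46.8%) and 18 of 29 (62.1%). Within each mouse the mean deviation of the small subunit genes minus that of the large subunit genes was -0.005, 0.02 and -0.01 in wild type mice 1, 3 and 4 and 0.07, 0.07 and 0.06 in double knockout mice 1, 2 and 3. The difference of the medians, large minus small, was -0.12, beside a spread between mice of 0.03 (SD), and no test was made of it because the genes are not replicates. It was -0.06 in the fit with the 3′ minus 5′ covariate.

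Symbols do not follow the assembled ribosome throughout: the products of Mrps18a and Mrps30 sit in the large subunit, and that of Mrps36 belongs to the oxoglutarate dehydrogenase complex rather than to the ribosome. With these placed by structure, the median difference was 0.16 over 49 large subunit genes and 0.26 over 26 small subunit genes. Of the 75 ribosomal genes, 45 code for proteins with a counterpart in bacterial ribosomes and 30 for proteins added in mitochondria, with the Mrps18a and Mrps18b paralogs, which sit elsewhere than the bacterial protein, counted among the latter. The medians were 0.18 and 0.27, with 4 genes called in each class, and all 30 mitochondria-specific genes had a positive difference, down to 0.01 for Mrps33. No test was made of these classes either.

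**Figure D2:**
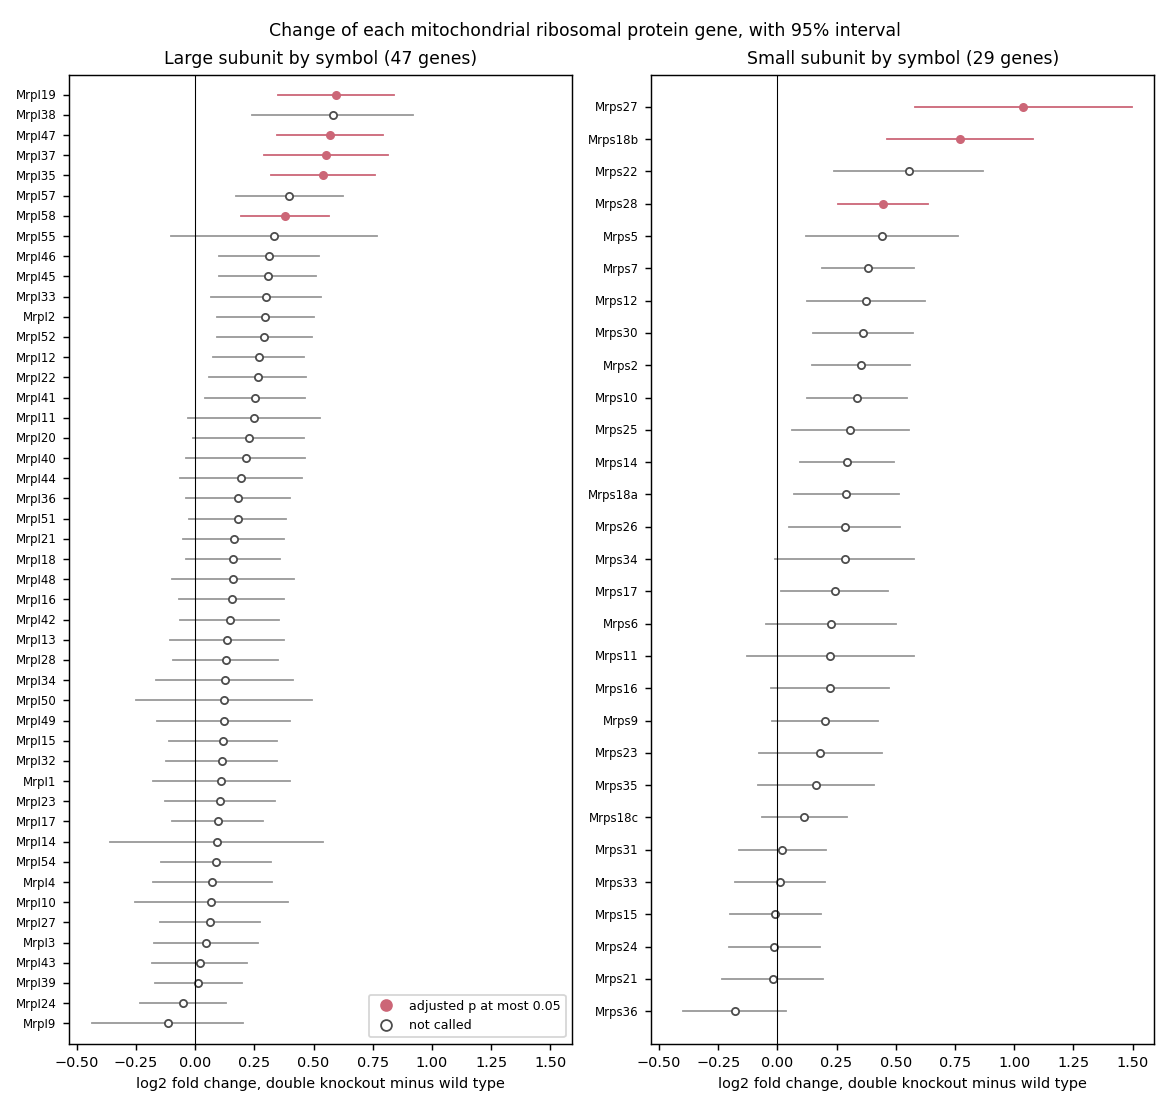
Log2 fold change of each gene, double knockout minus wild type (points), with the 95% interval from limma (lines), for 47 Mrpl and 29 Mrps genes ordered by size; filled points passed an adjusted p of 0.05. Of the 76 points 70 lie to the right of 0, and the 8 filled ones lie between 0.38 and 1.04.

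Among the large subunit genes, Mrpl47, Mrpl35, Mrpl19, Mrpl37 and Mrpl58 rose. Mrpl47, whose protein has a bacterial counterpart beside the exit of the polypeptide tunnel, had log2 levels of 8.81, 8.997 and 9.06 in wild type mice 1, 3 and 4 and of 9.56, 9.51 and 9.52 in double knockout mice 1, 2 and 3. The groups did not overlap, and the difference was 0.57 ± 0.09 (SE; 1.48-fold; limma adjusted p = 0.0309). Mrpl35, also a protein with a bacterial counterpart, had 8.84, 9.06 and 8.94 against 9.44, 9.56 and 9.47, a difference of 0.54 ± 0.09 (1.45-fold; limma adjusted p = 0.0330). All 3 double knockout values lay above all 3 wild type values.

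Mrpl19, a protein near the contact between the subunits, had log2 levels of 7.83, 7.68 and 7.86 in wild type and 8.24, 8.41 and 8.51 in double knockout mice, a difference of 0.59 ± 0.10 (1.51-fold; limma adjusted p = 0.0344). A second tested Mrpl19 probe set gave 0.43 ± 0.13 and did not pass (limma adjusted p = 0.0989). Mrpl37, a mitochondria-specific protein, had 7.57, 7.89 and 7.80 against 8.30, 8.23 and 8.39, a difference of 0.55 ± 0.11 (1.47-fold; limma adjusted p = 0.0454). The brightest probe sets of Mrpl19 and Mrpl37 carry the suffix s, given by the manufacturer to probe sets whose probes may match several transcripts.

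Mrpl58, known as Ict1, is a peptidyl-tRNA hydrolase that frees stalled mitochondrial ribosomes and is at the same time built into the large subunit. Its log2 levels were 8.95, 9.06 and 9.01 in wild type and 9.35, 9.41 and 9.39 in double knockout mice, a difference of 0.38 ± 0.08 (1.30-fold; limma adjusted p = 0.0492). Its groups were tight, with SDs of 0.05 and 0.03, and it sits at the edge of the threshold: it missed it under quantile normalisation, with an adjusted p of 0.0530.

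Among the small subunit genes, Mrps27, Mrps18b and Mrps28 rose. Mrps27, a pentatricopeptide repeat protein, the kind of protein that binds single-stranded RNA, had log2 levels of 4.92, 5.13 and 5.18 in wild type and 5.70, 6.42 and 6.23 in double knockout mice. The difference was 1.04 ± 0.19 (2.05-fold; limma adjusted p = 0.0394), the highest of the 76 genes, and the double knockout values spread over an SD of 0.37, against 0.14 in wild type. Its groups did not overlap, but it was dim, and a filter at a log2 value of 6 leaves it out.

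Mrps18b, which with Mrps18a and Mrps18c forms a set of paralogs related to a single bacterial small subunit protein, had 7.92, 8.29 and 7.85 in wild type and 8.78, 8.77 and 8.83 in double knockout mice. The difference was 0.77 ± 0.13 (1.71-fold; limma adjusted p = 0.0320). Its paralogs did not pass, with differences of 0.29 ± 0.09 for Mrps18a and 0.11 ± 0.08 for Mrps18c. Mrps28 had 8.89, 8.88 and 8.96 against 9.39, 9.39 and 9.29, a difference of 0.45 ± 0.08 (1.36-fold; limma adjusted p = 0.0369), with all 3 double knockout mice above all 3 wild type mice.

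**Figure D3:**
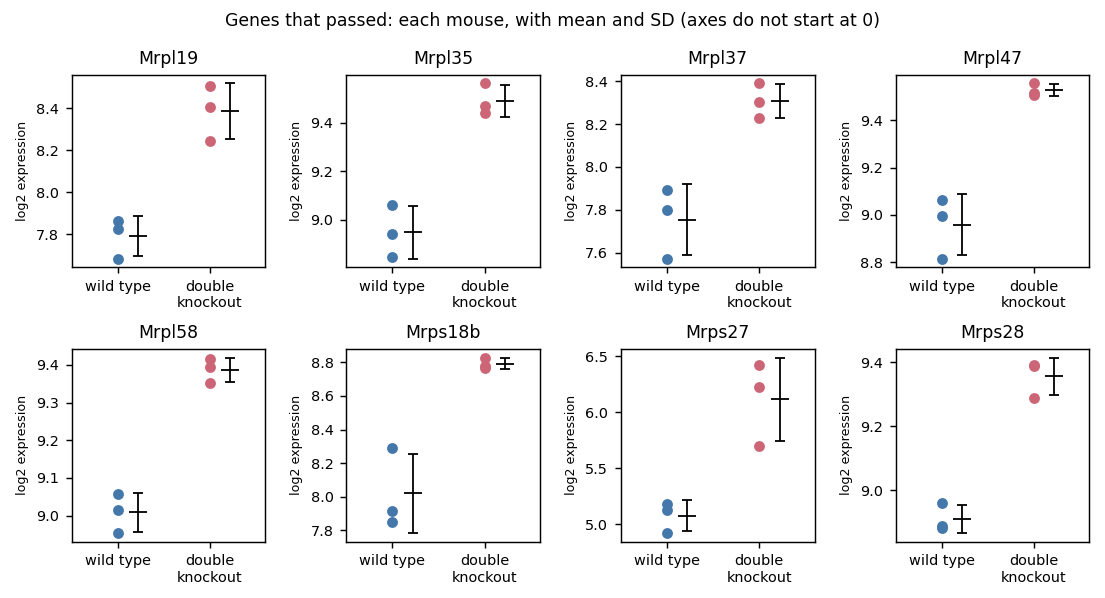
Log2 expression of the 8 genes that passed, in each wild type mouse (blue) and double knockout mouse (red), with the mean and SD of each group beside the points; each panel has its own axis, which does not start at 0. In every panel the 3 double knockout points lie above the 3 wild type points.

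Several genes of similar size did not pass. In the large subunit, Mrpl38 had log2 levels of 6.84, 6.99 and 7.23 in wild type and 7.52, 7.47 and 7.82 in double knockout mice, a difference of 0.58 ± 0.14 (limma adjusted p = 0.0686). In the small subunit, Mrps22 had 8.07, 8.02 and 8.32 against 8.47, 8.82 and 8.77, a difference of 0.55 ± 0.13 (limma adjusted p = 0.0640). Both had separate groups, with SDs up to 0.20 for Mrpl38 and 0.19 for Mrps22. Among the genes that passed, Mrps18b (SD 0.23 in wild type) and Mrps27 (SD 0.37 in double knockout mice) spread wider, with larger differences. Mrps7, a protein of the head of the small subunit, came nearest to the threshold, at 0.38 ± 0.08 (limma adjusted p = 0.0526).

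The other genes with the smallest p in the large subunit were Mrpl57 at 0.40 ± 0.10, Mrpl46 at 0.31 ± 0.09, Mrpl45 at 0.31 ± 0.09 and Mrpl52 at 0.29 ± 0.08, with limma adjusted p between 0.0643 for Mrpl57 and 0.0897 for Mrpl52. Mrpl45 is the protein that holds the tunnel exit to the inner membrane. In the small subunit they were Mrps30 at 0.36 ± 0.09, Mrps2 at 0.35 ± 0.09, Mrps10 at 0.34 ± 0.09, Mrps12, a protein of the decoding centre, at 0.38 ± 0.10, and Mrps14 at 0.29 ± 0.08. Their limma adjusted p lay between 0.0679 for Mrps30 and 0.0880 for Mrps14, and the 3 double knockout mice were above the 3 wild type mice in each of these 9 genes.

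At the other end, 6 genes had a negative difference, none past the threshold. Mrps36, whose log2 levels were 10.03, 10.00 and 10.13 in wild type and 9.81, 9.99 and 9.81 in double knockout mice, had the lowest value, -0.18 ± 0.09 (limma adjusted p = 0.253). Mrpl9 had -0.12 ± 0.13 and Mrpl24 -0.05 ± 0.08, and Mrps21, Mrps24 and Mrps15 lay between -0.02 and -0.01. Mrpl39, the third from the bottom of the large subunit, had 0.01 ± 0.08, with a 95% interval from -0.17 to 0.20. The upper end of that interval lies just under the median of the 76 genes.

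The choice of probe set mattered for some genes. Of the 26 genes with several tested probe sets, 18 had differences of 1 sign and 8 of both signs: Mrpl9, Mrpl13, Mrpl15, Mrpl27, Mrpl39, Mrpl44, Mrps21 and Mrps24. None of the probe sets of these 8 genes passed, and their differences ran from -0.21 for Mrpl15 to 0.38 for Mrpl44. Over all 115 tested probe sets of the 76 genes, 10 passed as higher (beside 2.54% of all tested probe sets) and 0 as lower (beside 1.93%). The 10 were those of the 8 genes above, a second probe set of Mrpl52 (0.38 ± 0.08, limma adjusted p = 0.0499) and a dim one of Mrps25 (0.58 ± 0.09, limma adjusted p = 0.0276), whose brightest probe set gave 0.31 ± 0.10.

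The 76 genes lie on 17 chromosomes. The chromosome of Ifrd2 carries Mrpl3, Mrpl4 and Mrps22, of which 2 lie within 10 Mb of Ifrd2 and 0 passed, and the chromosome of Ifrd1 carries 0 of the 76. The differences were 0.04 ± 0.09 for Mrpl3, 0.07 ± 0.11 for Mrpl4 and 0.55 ± 0.13 for Mrps22. Mrps22 had separate groups and a limma adjusted p of 0.0640, and any part of its place on this chromosome was not tested.

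Promoters of the 76 genes were compared because the genes share a small shift in 1 direction. RefSeq promoter windows of GRCm38.p6, from 250 bases before to 50 after the start, were found for 67 of the 76 genes and for 6 of the 8 that passed, all but Mrps28 and Mrpl19. Of these 67 genes, 25 (37.3%) had a gene on the opposite strand starting within 1000 bases upstream, against 18.9% of 7889 promoters of tested genes and 11.4% of 27025 promoters in the table. Each such pair shares a stretch of DNA between its starts.

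The stretches upstream of 5 genes that passed, and the one that Mrpl46 and Mrps11 share, are printed 5′ to 3′ on the strand of the named gene, with searched motifs in capitals. They show sequence before these genes that lies outside any RefSeq gene span; the bases before Mrpl37 lie inside the span of Cyb5rl, on the opposite strand, and are not shown. Mrpl35 (chr6:71823785-71823984, minus strand), Mrpl47 (chr3:32736756-32736955, minus strand) are given for the 200 bases before the start. Mrpl58 (chr11:115403552-115403723, plus strand) is given for 172 bases that stop 28 bases short of the listed start, where its RefSeq gene span begins. The others are Mrps18b (chr17:35916441-35916511, minus strand) up to the span of Ppp1r10, Mrps27 (chr13:99344679-99344766, plus strand) from the start of Ptcd2 to 19 bases short of its own, and Mrpl46 (chr7:78783090-78783130, minus strand) from the start of Mrps11.
Mrpl35: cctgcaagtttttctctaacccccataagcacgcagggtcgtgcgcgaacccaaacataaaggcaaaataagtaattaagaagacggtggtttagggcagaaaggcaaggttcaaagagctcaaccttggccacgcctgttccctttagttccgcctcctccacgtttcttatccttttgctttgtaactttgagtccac
Mrpl47: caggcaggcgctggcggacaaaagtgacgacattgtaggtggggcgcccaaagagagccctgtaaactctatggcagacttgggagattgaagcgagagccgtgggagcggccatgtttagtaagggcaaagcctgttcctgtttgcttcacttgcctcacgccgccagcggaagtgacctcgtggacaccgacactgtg
Mrpl58: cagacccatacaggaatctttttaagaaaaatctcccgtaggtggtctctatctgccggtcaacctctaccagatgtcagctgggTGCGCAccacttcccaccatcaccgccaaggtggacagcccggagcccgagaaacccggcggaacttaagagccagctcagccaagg
Mrps18b: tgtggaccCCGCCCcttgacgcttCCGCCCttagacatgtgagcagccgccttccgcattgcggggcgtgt
Mrps27: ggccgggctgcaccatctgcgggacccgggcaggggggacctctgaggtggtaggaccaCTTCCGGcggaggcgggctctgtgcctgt
Mrpl46: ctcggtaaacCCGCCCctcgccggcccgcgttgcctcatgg
The capitals mark TGCGCA, part of the site of NRF1, a regulator of nuclear genes for mitochondrial proteins, in Mrpl58, and CCGGAAG, the core of the site of GABPA and other ETS factors, read on the opposite strand in Mrps27. In Mrps18b and Mrpl46 they mark the GC box GGGCGG, the site of SP1, also read on the opposite strand. No searched motif was found in the printed stretches of Mrpl35 and Mrpl47, and the bases of Mrpl58 left out before its start hold further CCGGAAG matches.

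In the whole 300-base windows, read on both strands, CCGGAAG occurred in 24 of 67 promoters (35.8%), against 19.5% of promoters of tested genes and 9.12% of all promoters. TGCGCA occurred in 31.3%, against 15% and 8.06%, the longer NRF1 sequence GCGCATGCG, which can overlap it, in 10.4%, against 3.93% and 1.81%, and AAGATGGCG, a site of YY1, in 11.9%, against 3.54% and 1.49%. The GC box GGGCGG was found in 50.7%, against 65.8% and 35.9%, CCAAT in 38.8%, against 38.9% and 37.9%, and the E-box CACGTG in 7.46%, against 10.8% and 7.24%. Among the 6 genes that passed and had a window, CCGGAAG and AAGATGGCG each occurred in 3, TGCGCA and GGGCGG in 2, and the others in 1. G and C made up 59% of the bases in the 67 windows, 61% in those of tested genes and 53.6% in all, and a match of letters is a description only.

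Of the genes that start opposite a mitochondrial ribosomal protein gene, 16 were tested (Mrpl46 and Mrps11 count for each other). A positive difference was found for 14 of the 16, beside 58.1% of all tested genes. Their median was 0.19, beside 0.05 over all tested genes, and whether the pairs move together was not tested. Ptcd2, a pentatricopeptide repeat protein that starts 108 bases from Mrps27, rose: its log2 levels were 6.48, 6.56 and 6.56 in wild type and 7.09, 7.19 and 7.31 in double knockout mice, a difference of 0.66 ± 0.09 (limma adjusted p = 0.0223). Mrps27 and Ptcd2 were thus both called higher. Ppp1r10, a regulatory subunit of a nuclear protein phosphatase that starts 756 bases from Mrps18b, had 4.03, 4.12 and 4.01 against 3.64, 3.60 and 3.46, a difference of -0.48 ± 0.09. It passed the filter at 4 through its wild type arrays alone, so a gene kept in this way had to be lower in double knockout mice, and its adjusted p is not read as a call.

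**Figure D4:**
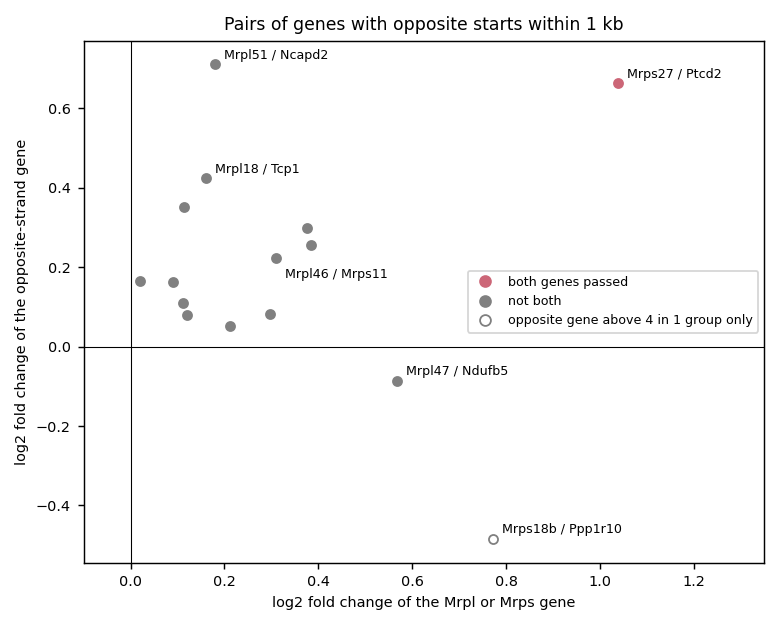
Log2 fold change (double knockout minus wild type) of each mitochondrial ribosomal protein gene on the horizontal axis and of the tested gene starting within 1 kb on the opposite strand on the vertical axis, 15 pairs with the Mrpl46 and Mrps11 pair drawn once. The red point is Mrps27 with Ptcd2, both higher, and the open point is Mrps18b with Ppp1r10, whose values were above 4 in the wild type mice alone.

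Mrpl46 and Mrps11, a large and a small subunit gene whose starts lie 42 bases apart, differed by 0.31 ± 0.09 and 0.22 ± 0.15, and neither passed. Mrpl47 and Ndufb5, a subunit of respiratory complex I that starts 308 bases away, did not share a call: Ndufb5 had -0.09 ± 0.09 (limma adjusted p = 0.555). Mrps12 and Sars2, the mitochondrial serine tRNA synthetase that starts 147 bases away, had 0.38 ± 0.10 and 0.30 ± 0.11, and neither passed.

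Other genes of mitochondrial gene expression were counted in the same fit. For this and the following lists, the shares over all tested genes were 3.18% passed as higher and 1.6% as lower. At an unadjusted p of at most 0.05 they were 17.6% and 10.4%. Of 5 further genes listed with the mitoribosome under other names, Oxa1l and Ptcd3 rose. Oxa1l inserts new chains into the inner membrane and is not itself a ribosomal subunit, and Ptcd3 is a small subunit protein. Oxa1l had log2 levels of 5.47, 5.84 and 5.70 in wild type and 6.57, 6.57 and 6.38 in double knockout mice, a difference of 0.84 ± 0.12 (limma adjusted p = 0.0255), and Ptcd3 differed by 0.41 ± 0.08 (limma adjusted p = 0.0497). Gadd45gip1, a large subunit protein, had -0.76 ± 0.23 and did not pass (limma adjusted p = 0.101).

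Of 32 tested assembly factors of the mitochondrial ribosome, Noa1 and C1qbp rose, by 0.58 ± 0.11 and 0.63 ± 0.12, and 0 fell, with a median of 0.16. These 2 genes were 6.25% of the list, beside 3.18% of all tested genes. Of 18 translation factors, 0 rose and 1 fell, Mtfmt, which adds the formyl group to the initiator tRNA: it had log2 levels of 7.02, 6.82 and 7.15 in wild type and 5.99, 6.11 and 6.49 in double knockout mice, a difference of -0.80 ± 0.16 (limma adjusted p = 0.0440). The median of the 18 was 0.27. Of 14 mitochondrial tRNA synthetases, Yars2 and Iars2 rose, by 0.61 ± 0.09 and 0.73 ± 0.13, and 0 fell. Mtfmt was thus the only called gene in these 4 lists that fell.

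Of 30 genes for the upkeep and processing of mitochondrial DNA and RNA, 3 passed as higher and 0 as lower: Elac2, which trims tRNA ends (0.52 ± 0.09), Pus1, a pseudouridine synthase (0.64 ± 0.12), and Top1mt, the mitochondrial topoisomerase (0.81 ± 0.12). Top1mt was above the filter limit of 4 in the double knockout mice alone, so a gene kept in this way had to be higher there. Of 34 genes of mitochondrial import and folding, Timm22 and Tomm40, channel proteins of the inner and the outer membrane, rose by 0.65 ± 0.09 and 0.58 ± 0.10, 0 fell, and the median was 0.28. Of 13 regulators of mitochondrial genes, Pprc1, a coactivator that works with NRF1, rose from 6.22, 6.46 and 5.98 to 7.14, 7.05 and 7.68, by 1.07 ± 0.20 (limma adjusted p = 0.0401), and 0 fell. The median of the 13 was -0.04, 7 had a negative difference, and at an unadjusted p of at most 0.05 1 was higher and 3 were lower. The shares that passed as higher were 10% of the DNA and RNA genes, 5.88% of the import and folding genes and 7.69% of the regulators. Over all tested genes the share was 3.18%.

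Respiratory chain and ATP synthase subunits, the machinery to which the products of mitochondrial ribosomes belong, did not show the shift. Of 72 tested nuclear genes 0 rose and 0 fell at the adjusted threshold, 0 were higher and 1 lower at an unadjusted p of at most 0.05, and the median was -0.01. All 3 double knockout mice lay above all 3 wild type mice in 3 of these 72 genes (4.17%), beside 22.5% of all tested genes. They lay below them in 15 of the 72, beside 14.2%. Their mean deviation by mouse was -0.04, 0.02 and 0.02 in wild type and -0.02, 0.04 and -0.02 in double knockout mice, so the groups overlapped. Of 25 other enzymes and carriers of mitochondria 0 rose and 0 fell, 2 were higher at an unadjusted p of at most 0.05, and the median was 0.06.

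Cytosolic ribosomes gave a further comparison. Of 43 cytosolic ribosomal protein genes 0 rose and 0 fell in limma at the adjusted threshold, 17 were higher at an unadjusted p of at most 0.05 and 0 lower, and the median was 0.16, beside 0.16 for the large mitochondrial subunit. In 34 of the 43 (79.1%) all 3 double knockout mice lay above all 3 wild type mice, against 52.6% of the mitochondrial ribosomal protein genes, and 13 of the 43 passed as higher with a trended and robust variance prior. With that prior 5.37% of all tested probe sets passed as higher, against 2.54% without it. Of 29 nucleolar assembly factors of the cytosolic ribosome 18 rose and 0 fell, with a median of 0.57. Examples are Utp14a at 0.77 ± 0.10, Nop56 at 0.84 ± 0.11 and Heatr1 at 1.12 ± 0.15. Nucleolar factors passed in a larger share of their list (62.1%) than the mitochondrial ribosomal proteins (10.5%), a difference that was not tested.

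**Figure D5:**
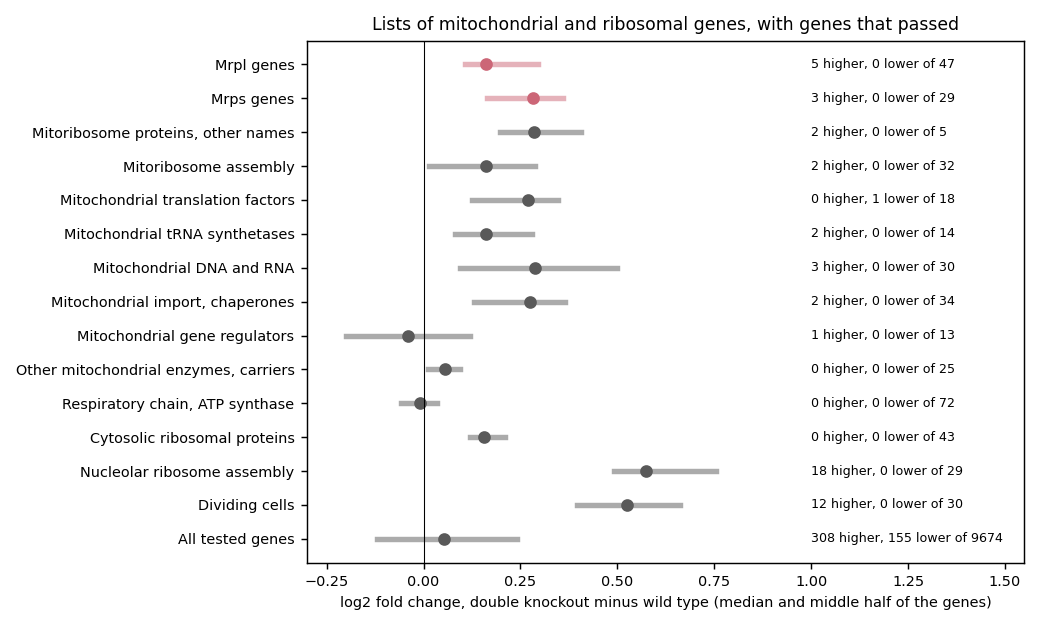
Median (point) and interquartile range (bar) of the log2 fold change, double knockout minus wild type, for the Mrpl and Mrps genes (red), other gene lists and all 9674 tested genes (grey), with the number of genes that passed in each direction at the right. The Mrpl and Mrps medians of 0.16 and 0.28 lie between those of the respiratory chain (-0.01) and of the nucleolar factors (0.57).

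Genes of dividing cells also stood higher in the double knockout mice. Of 30 tested, 12 rose and 0 fell, with a median of 0.53, among them Plk1 (1.19 ± 0.17), Ube2c (0.77 ± 0.11), Hmmr (0.68 ± 0.09) and Mcm5 (0.52 ± 0.08). Their mean deviation by mouse was -0.03, 0.07 and -0.04 in wild type and 0.53, 0.48 and 0.63 in double knockout mice, and their part in the result was not tested. Double knockout mouse 2 had the lowest of these 3 values and the highest mean of the mitochondrial ribosomal proteins.

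Markers of cell types gave 0 calls in either direction in limma, although with the trended and robust prior 2 enterocyte markers passed as lower and 1 crypt and 1 goblet cell marker as higher. With that prior 968 of 18013 probe sets passed as higher and 762 as lower. Without it, 17.6% of all tested genes were higher and 10.4% lower at an unadjusted p of at most 0.05. The medians were -0.09 over 15 enterocyte markers (0 higher and 3 lower at an unadjusted p of at most 0.05), 0.19 over 9 markers of crypt stem cells (3 and 1), 0.09 over 11 goblet cell markers (1 and 0) and -0.07 over 5 Paneth cell markers (0 and 0). Outside the epithelium they were 0.47 over 13 fibroblast markers (3 and 0), 0.03 over 9 smooth muscle markers (0 and 0), 0.36 over 8 macrophage markers (1 and 0) and 0.04 over 9 lymphocyte markers (0 and 0). The mean deviation of the fibroblast markers was 0.23, 0.17 and -0.40 in wild type and 0.16, 0.66 and 0.51 in double knockout mice. That of the macrophage markers was 0.28, 0.12 and -0.40 and 0.01, 0.93 and 0.50, so in both lists double knockout mouse 1 lay below wild type mouse 1. Within the double knockout group both lists were highest in mouse 2 and lowest in mouse 1. The same order held for the mitochondrial ribosomal protein genes (0.17, 0.27 and 0.25 in mice 1, 2 and 3). Within the wild type group the order was reversed. Both lists were highest in mouse 1 and lowest in mouse 4. The mitochondrial ribosomal protein genes were lowest in mouse 1 and highest in mouse 4 (-0.05, 0.02 and 0.03 in mice 1, 3 and 4). The part of these cells in the result was not tested.

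The calls in the gene lists also depended on single mice. As each mouse was left out, the number called higher ran from 0 to 11 for the 29 nucleolar factors and from 0 to 7 for the 30 genes of dividing cells, highest in both without double knockout mouse 2, and was at most 1 in each list of mitochondrial genes. With the 3′ minus 5′ covariate it was 0 in every list, in a fit that called 5 of 18013 probe sets as higher.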

How the data were processed

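The authors deposited 1 log2 expression value for each probe set and array, made, as the submitters' processing notes name it, by GCRMA 2.18.0 (settings not given in the sources used here). GCRMA models background from the sequence of each probe, and its lowest values carry little information. Gene names came from the platform annotation. 4 probe sets that name a mitochondrial ribosomal protein gene together with another gene were left out. The 64 controls and the dim probe sets (fewer than 3 of 6 arrays over a log2 of 4) were dropped, and the remaining 18013 of 45101 were fitted with limma 3.58.1 in R 4.3.3 (lmFit, eBayes, two-sided, no covariate), with Benjamini-Hochberg adjustment over all of them and a threshold of 0.05. Errors after differences are standard errors, and the number of arrays limits the precision. The fit was tested on simulated data.

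Genes named are those that passed, the 10 with the smallest p and the 3 at each end in each subunit, and those whose probe sets disagree. Of each list, up to 4 that passed are named, or up to 2 of the smallest p where none did. Other genes named, such as paralogs and neighbours of called genes, were chosen after their values were seen. The members and the 20 gene lists were chosen with earlier results of these data known. No array was a copy of another of its group, since 62.5% to 69.1% of the fitted probe sets were more than 0.1 apart. Mouse numbers shared by the groups were not taken as pairs. Alternatives covered the filter, normalisation, a floor, the variance prior, array weights, the 3′ minus 5′ covariate, the mouse number as a block, each mouse left out, the choice of probe set and the subunit of Mrps18a, Mrps30 and Mrps36.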

Additional observations from a re-analysis of the deposited data

How the results depend on the processing

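The number of mitochondrial ribosomal protein probe sets that passed as higher, 10 with the settings above, was 3 with no filter on dim probe sets, 21 with a trended and robust variance prior, 0 with the 3′ minus 5′ covariate and 0 with the replicate block (mouse number as a block). The whole array changed too. Over all fitted probe sets, 458 of 18013 passed as higher with the settings above and 265 of 45037 with no filter. Of the 18013, 968 passed with the prior, 5 with the covariate and 2 with the block. For the mitochondrial ribosomal protein probe sets the number ran from 0 to 1 as each mouse was left out: 1 without wild type mouse 3 (Mrps18b), 1 without double knockout mouse 1 (Mrps27) and 0 in the other 4 fits. These fits rest on fewer residual degrees of freedom, and over all genes they called 11 to 196 probe sets as higher, against 458. Under the remaining settings it was 7 to 15, and the number that passed as lower was 0 under every setting. The median difference of the large subunit ran from 0.15 to 0.21 and that of the small subunit from 0.23 to 0.31 as each mouse was left out, and large minus small from -0.124 to -0.082. Large minus small was -0.056 with the 3′ minus 5′ covariate. Under the replicate block the medians were 0.18 and 0.27. The groups share only the numbers 1 and 3; deviations of same-numbered mice correlated at 0.02 and 0.30 over probe sets. For the named genes, 375 of 464 values stayed on their side of the threshold, 71 lost the call and 18 gained it. Only the 8 genes that passed could lose a call, so the 71 are values of these 8. The other named genes could only gain one. All 8 lost it with the 3′ minus 5′ covariate, with the replicate block and in 4 of the fits with a mouse left out. The sign changed in 8 values of 4 genes near 0 (Mrpl9, Mrpl39, Mrps21 and Mrps24), none of them called. The cause of the changes with the covariate, the block and the prior was not tested. The setting without probe sets of suffix s or x, which left 7 calls, was chosen after seeing the data.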
